A study of Homo sapiens with 4 samples.

Results

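RAS proteins are small membrane-bound GTPases that pass signals from growth factor receptors to the ERK kinase cascade, and the 9 genes described here set how much RAS is active: the adaptor GRB2, the exchange factors SOS1 and SOS2, the GTPases HRAS and NRAS, the GTPase-activating proteins NF1 and RASA1, and the SPRED proteins SPRED1 and SPRED2. All probe sets that the platform annotation assigned to exactly 1 of these symbols were taken as members, which gave 22 of the 54675 probe sets of the array and 7 of its 19775 genes. SOS1 had 5 of them, SOS2 6, GRB2, SPRED1 and SPRED2 3 each, and HRAS and NF1 1 each. NRAS and RASA1 were not analysed here.

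GRB2 binds phosphorylated receptors and carries SOS to the membrane, where SOS makes RAS release GDP and take up GTP. NF1 (neurofibromin) and RASA1 speed up GTP hydrolysis and so turn RAS off, and SPRED proteins bring neurofibromin to the membrane. In epithelial cells this circuit links growth factor and stress signals to proliferation, survival and migration.

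The cells were AGS, an established human gastric adenocarcinoma line used as a model of the gastric epithelium. The cells received either fresh medium (untreated) or medium to which lipopolysaccharide (LPS) of Helicobacter pylori, the glycolipid of its outer membrane, had been added at 10 µg/ml, and RNA was taken after 8 h. Each group held 2 arrays, numbered replicate 1 and replicate 2, and the submitters speak of 2 independent experiments without stating that a number marks one of them. If they were not separate cultures, the spread between arrays is technical only.

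The genes were chosen by the LPS minus untreated difference of SOS1, which had already been seen in these data, together with its partners and brakes. All differences of the members in that comparison are therefore given as a description. Counts from the fit over all probe sets are printed beside the same counts for the whole array, and since the same values chose the genes, nothing is read from them. Values are the deposited log2 expression values, and a level of 6.64 is the median of the 41091 probe sets with 1 gene symbol. Probes differ in how well they bind, so levels on different probe sets do not compare amounts of RNA. Bright, dim, and above or below a median refer to the signal only.

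Both groups showed the defining transcripts of an epithelial line: EPCAM, KRT8, KRT18 and KRT19 stood between 12.43 and 14.45 on every array. In the mean over arrays, all 4 measured leukocyte markers (PTPRC, CD14, CD3E, ITGAM) and all 3 endothelial markers lay below the median over genes of 7.25. The endothelial marker PECAM1 reached 7.28 on untreated replicate 2. The fibroblast markers COL3A1 and PDGFRB also lay below that median, while COL1A1 lay above it. Summed over the leukocyte list the log2 levels were 23.21 to 23.38 in untreated and 22.52 to 23.17 in treated cells. Signals this low may be background rather than transcript, so these sums do not measure how many leukocytes were present. The part of these markers in the differences below was not tested. The 18S ribosomal RNA control probe sets separated the arrays by number, at 10.07 (untreated) and 9.89 (LPS) on those numbered 1 and 8.12 and 7.98 on those numbered 2.

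The members that stood apart most from their untreated level on several probe sets each were SOS1, higher with LPS, and SPRED1, lower with LPS. Their promoter sequences are shown so that the 2 genes can be looked up; each is the 250 bases before the RefSeq gene start (GRCh38.p14), 5′ to 3′ on the gene's strand, at chr2:39124869-39125118 (minus strand) for SOS1 and chr15:38252586-38252835 (plus strand) for SPRED1. Capitals mark the GC box GGGCGG, a binding motif of SP1-type factors, on either strand.

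SOS1: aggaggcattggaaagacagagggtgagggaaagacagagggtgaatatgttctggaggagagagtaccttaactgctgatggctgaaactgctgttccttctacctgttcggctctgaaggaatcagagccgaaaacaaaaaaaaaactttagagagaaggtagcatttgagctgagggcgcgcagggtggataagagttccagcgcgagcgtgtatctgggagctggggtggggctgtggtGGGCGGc

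SPRED1: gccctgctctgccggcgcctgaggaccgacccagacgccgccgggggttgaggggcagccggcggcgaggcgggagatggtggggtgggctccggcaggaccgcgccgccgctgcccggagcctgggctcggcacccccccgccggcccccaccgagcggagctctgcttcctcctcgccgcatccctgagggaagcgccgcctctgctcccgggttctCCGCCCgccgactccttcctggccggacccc

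Each window held 1 GC box, a motif found in 42.6% of the 35116 RefSeq promoter windows of that length. Neither held the AP-1 motif TGANTCA (6.57% of windows) or the cAMP response element TGACGTCA (1.65%), both searched on either strand, which says only that these letters are not in these windows. GC content was 52.4% for SOS1 and 78.4% for SPRED1, against a median of 58% over all windows. Another RefSeq promoter window of SOS1, at chr2:39121052-39121301 and not at the gene start, had 67.2% GC and 0 GC boxes. The arrays did not measure binding to any of these windows.

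**Figure D1:**
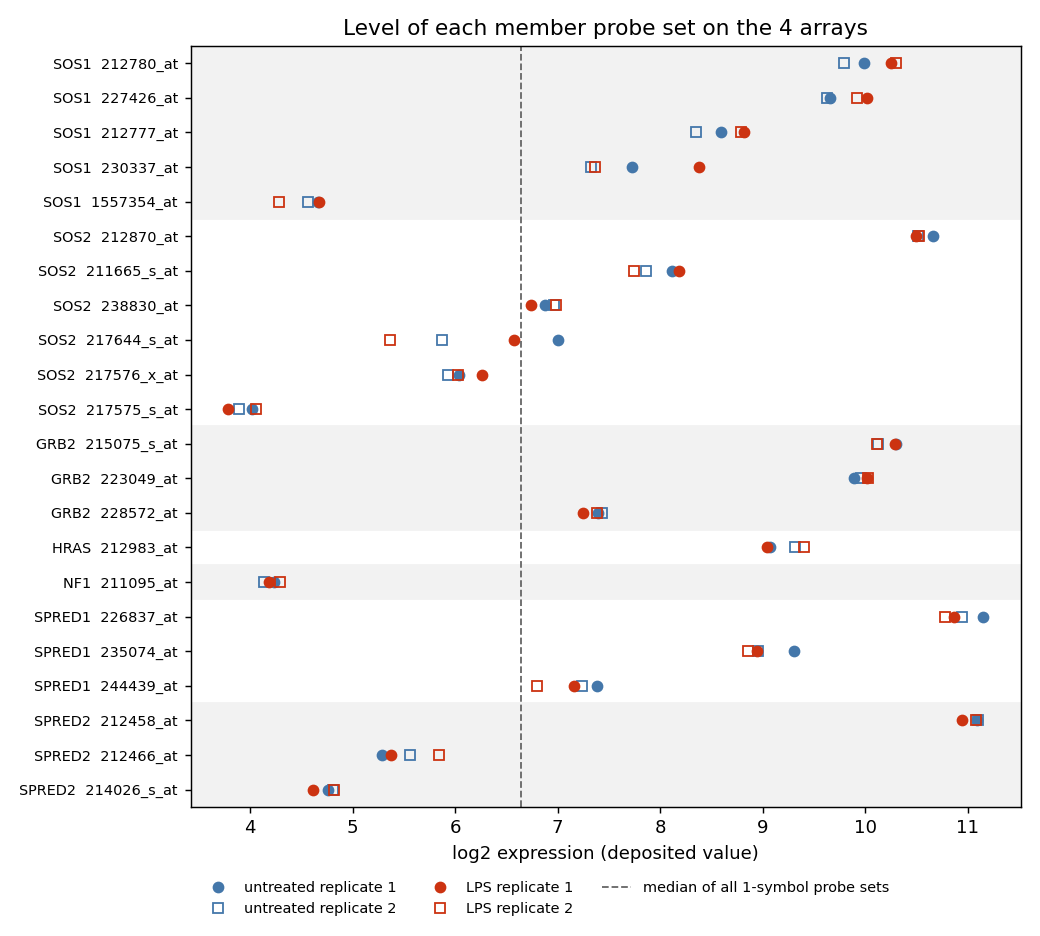
Deposited log2 expression (x axis) of the 22 member probe sets (y axis) on each of the 4 arrays; blue marks untreated, red LPS, filled circles replicate 1 and open squares replicate 2, and the dashed line is the median of all probe sets with 1 symbol. The red points of SOS1 lie to the right of the blue ones on 3 probe sets, those of SPRED1 to the left on 3, and SOS2 217644_s_at splits by replicate number.

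Among the 22 probe sets the differences (LPS minus untreated, means of 2 arrays) ran from -0.47 to 0.39 on the log2 scale, with 9 above 0 and 13 below, where 54.9% of all probe sets lay above 0. Their median was -0.028, against 0.014 over all 41091 probe sets tested. The median size of the difference, whatever its sign, was 0.12 for the members and 0.081 over all probe sets. In limma's moderated test 0 of the 22 passed an adjusted p of 0.05, and 0 of all probe sets did (0%). At an unadjusted p under 0.05 there were 3 members, all of them SOS1 probe sets with a higher level in treated cells, against 2.68% of all probe sets in either direction and 1.19% higher. The 2 groups did not overlap for 9 of the 22, against 29.8% of all probe sets. Of the 9, 4 were higher and 5 lower with LPS, against 17.3% and 12.4% of all probe sets. For a single value in 2 groups of 2, the smallest two-sided p of an exact permutation test is 0.33.

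SOS1, the ubiquitous exchange factor, was higher with LPS on its 4 brighter probe sets, by 1.25-fold to 1.31-fold in the means. On its brightest probe set, 212780_at, untreated cells had 9.98 and 9.79 and treated cells 10.25 and 10.30 (replicates 1 and 2). Both treated arrays lay above both untreated ones, with 0.27 between the nearest. The means were 9.89 ± 0.13 and 10.28 ± 0.03 (SD, n = 2), a difference of 0.39 ± 0.11 (SE of the limma fit). It ranked 51 among the 41091 probe sets, counted from the highest difference. Since the genes were chosen by the SOS1 difference, that rank adds no support. In RNA from whole cultures, a change in which cells are present cannot be told apart from a change in RNA per cell.

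On 227426_at SOS1 had 9.66 and 9.63 in untreated and 10.01 and 9.91 in treated cells, a difference of 0.32 ± 0.10. On 212777_at the values were 8.59 and 8.35, then 8.82 and 8.79, a difference of 0.34 ± 0.13. On both probe sets the groups did not overlap, and the treated arrays lay closer to each other than to any untreated array. The probe sets of 1 gene read the same RNA on the same arrays, so their agreement adds no replicate.

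The other 2 SOS1 probe sets gave another picture. On 230337_at the values were 7.72 and 7.33 in untreated and 8.38 and 7.37 in treated cells. Here the mean difference of 0.35 ± 0.33 rested on LPS replicate 1: between the arrays numbered 1 it was 0.66 and between those numbered 2 it was 0.04, and without LPS replicate 1 it turned to -0.16. The gap of 1.01 between the treated arrays was wider than for 99.5% of all probe sets. The dim 1557354_at, with 4.66 and 4.56, then 4.67 and 4.28, differed by -0.14 ± 0.14 and overlapped.

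Within the array numbers, the 4 brighter SOS1 probe sets differed by 0.23 to 0.66 between the arrays numbered 1 and by 0.04 to 0.51 between those numbered 2. On 212780_at the difference was 0.29 without untreated replicate 2 and 0.48 without untreated replicate 1. On 212777_at these were 0.21 and 0.46, and without untreated replicate 2 none of the 22 members had an unadjusted p under 0.05. Untreated replicate 2 was the lowest array on both probe sets.

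SOS2, the paralog with the same catalytic activity, showed no such pattern. Its brightest probe set, 212870_at, had 10.66 and 10.51 in untreated and 10.49 and 10.52 in treated cells, a difference of -0.08 ± 0.10. Untreated replicate 1 lay above the other arrays, which were within 0.03 of one another. On 211665_s_at it differed by -0.02 ± 0.18, on 238830_at by -0.05 ± 0.13, and on the dim 217575_s_at and 217576_x_at by -0.03 and 0.16. The groups overlapped on all 6 SOS2 probe sets. The SOS1 and SOS2 differences come from the same 4 arrays and were not tested against each other.

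The probe set 217644_s_at of SOS2 had the widest spread of any member, with 7.00 and 5.87 in untreated and 6.57 and 5.37 in treated cells. The arrays numbered 1 lay above those numbered 2 in both groups, by 1.13 in untreated and 1.20 in treated cells, gaps wider than for 99.9% and 99.8% of all probe sets. The LPS minus untreated difference was -0.44 within number 1 and -0.50 within number 2. The mean difference was -0.47 ± 0.48. The 18S control signal was also higher on the arrays numbered 1, and its part in this split was not tested. The next widest gap between the arrays of a group on a SOS2 probe set was 0.43.

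GRB2, the adaptor that joins receptors to SOS, was bright and nearly level between the groups. The probe set 215075_s_at had 10.30 and 10.13 in untreated and 10.29 and 10.11 in treated cells, so that it differed by number and hardly by treatment (-0.02 ± 0.12). On 223049_at the values were 9.89 and 9.96, then 10.01 and 10.02, a difference of 0.10 ± 0.10. On 228572_at they were 7.39 and 7.43, then 7.24 and 7.38, a difference of -0.10 ± 0.12. The latter probe sets did not overlap between groups but pointed in opposite directions, with 0.059 and 0.010 between the nearest arrays.

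HRAS, the only GTPase among the measured members, stood at 9.07 and 9.32 in untreated and 9.04 and 9.40 in treated cells on 1 probe set. The arrays numbered 2 were the higher ones in both groups, by 0.25 and 0.35, and the treatment difference of 0.03 ± 0.16 was far smaller than that. It ran from -0.15 to 0.20 when each array was left out in turn, so it has no settled sign.

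NF1, the neurofibromin gene, had 1 probe set of its own, 211095_at, at 4.24 and 4.14 in untreated and 4.19 and 4.29 in treated cells. These levels were among the lowest 8.5% of all probe sets, and the difference was 0.05 ± 0.09. A dim probe set may report background rather than transcript, so it sets no bound on a change in NF1. A further 9 probe sets were annotated both to NF1 and to the pseudogene NF1P9, with levels of 5.82 to 9.97 and differences of -0.38 to 0.11. They lay outside the choice of members, because their signal cannot be assigned to 1 gene.

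**Figure D2:**
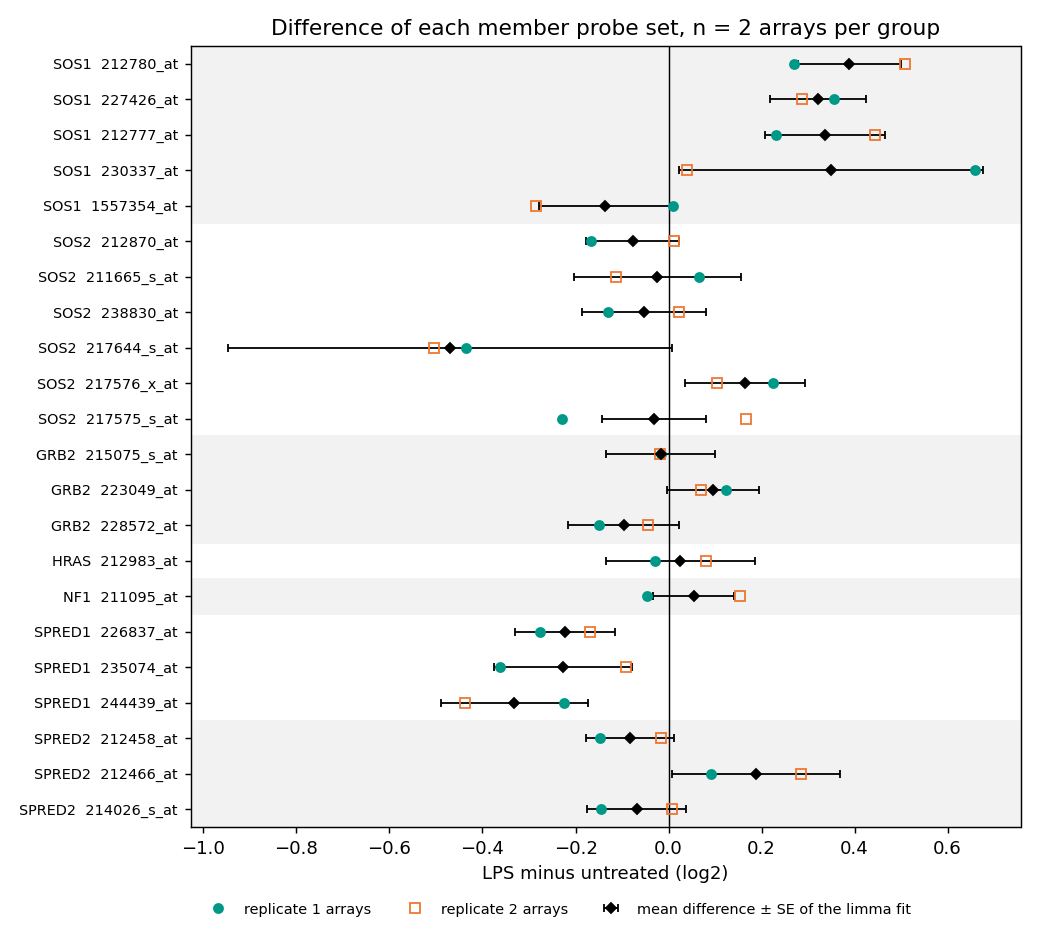
Difference between LPS and untreated arrays (x axis, log2) for the 22 member probe sets (y axis); black diamonds with bars are the mean difference ± SE of the limma fit, circles the difference between the arrays numbered 1 and squares that between the arrays numbered 2. Both pairs of SOS1 212780_at, 227426_at and 212777_at lie above 0 (0.23 to 0.51), and both pairs of all 3 SPRED1 probe sets lie below 0 (-0.44 to -0.09). The groups do not overlap on these probe sets, so both pairs had to lie on the same side.

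SPRED1, a membrane-bound inhibitor of RAS to RAF signalling and a partner of neurofibromin, was lower with LPS on all 3 of its probe sets, with untreated levels 1.17-fold to 1.26-fold above the treated ones. The brightest, 226837_at, had 11.15 and 10.95 in untreated and 10.87 and 10.78 in treated cells, a difference of -0.22 ± 0.11. On 235074_at the values were 9.31 and 8.95, then 8.95 and 8.86, a difference of -0.23 ± 0.15. On 244439_at they were 7.39 and 7.24, then 7.16 and 6.80, a difference of -0.33 ± 0.16. On each of these probe sets both treated arrays lay below both untreated ones, but on 235074_at the nearest arrays were only 0.0047 apart.

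The SPRED1 difference was seen within both array numbers, at -0.36 to -0.23 between the arrays numbered 1 and -0.44 to -0.09 between those numbered 2. That shared sign follows from the groups not overlapping and is no further observation. Untreated replicate 1 was the highest array on all 3 probe sets and LPS replicate 2 the lowest. Without untreated replicate 1 the differences of 226837_at and 235074_at shrank to -0.12 and -0.05, and without LPS replicate 2 that of 244439_at shrank to -0.15.

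SPRED2, the related family member, was lower with LPS on 2 of its 3 probe sets, by less than any SPRED1 probe set. Its bright probe set 212458_at had 11.09 and 11.10 in untreated and 10.94 and 11.08 in treated cells, a difference of -0.08 ± 0.09. The groups missed each other by 0.0057, and LPS replicate 1 was the array that stood lower. The dim 212466_at had 5.29 and 5.55, then 5.38 and 5.84, and differed by 0.19 ± 0.18, with the arrays numbered 2 higher in both groups. The dim 214026_s_at differed by -0.07 ± 0.11. Whether SPRED1 and SPRED2 differ in their response was not tested.

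**Figure D3:**
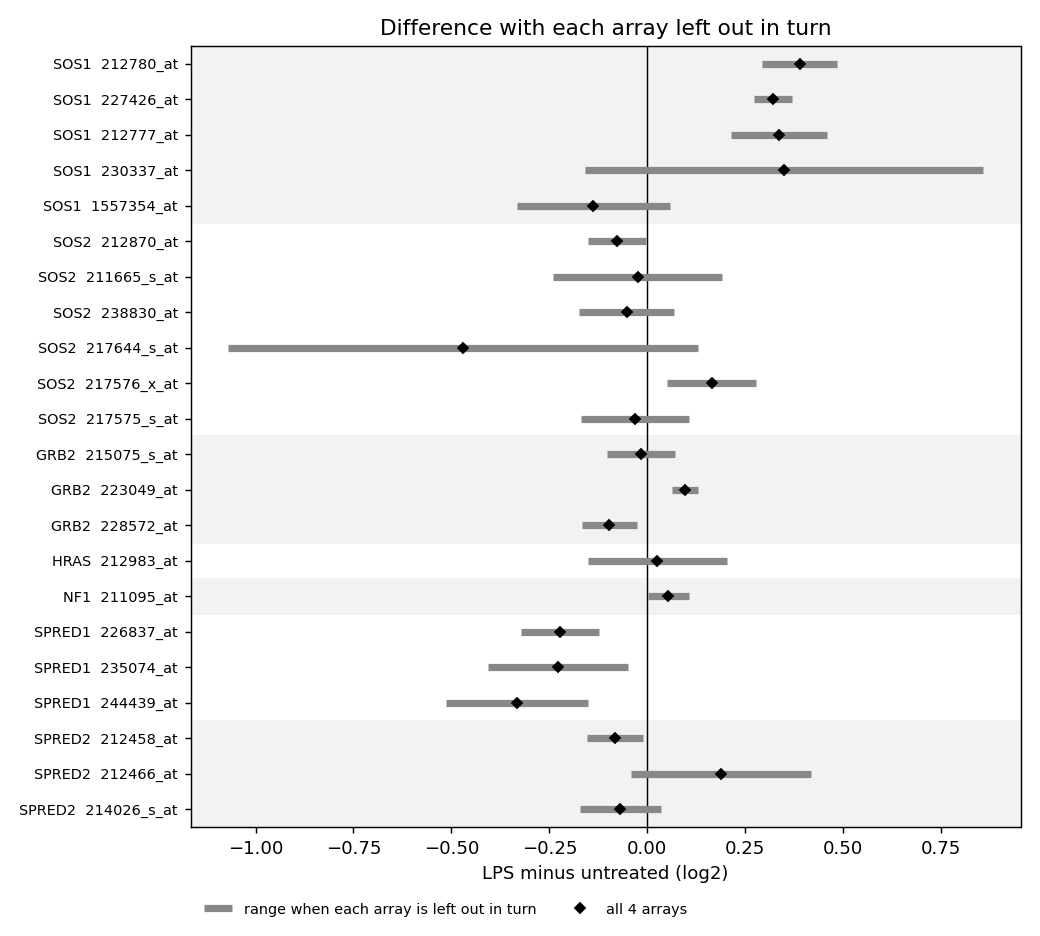
Difference between LPS and untreated arrays (x axis, log2) of the 22 member probe sets (y axis) with all 4 arrays (diamonds) and its range when each array is left out in turn (bars). The bars of SOS1 212780_at (0.29 to 0.48), 227426_at and 212777_at stay above 0 and those of the 3 SPRED1 probe sets below 0, while 10 of the 22 bars cross 0. Where the groups do not overlap, a bar cannot cross 0.

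The sign of the difference held for 12 of the 22 probe sets under every alternative run, including each array left out. It turned for 10, and no such count was made over all probe sets. The 12 include SOS1 212780_at, 227426_at and 212777_at and all 3 SPRED1 probe sets. On these the groups did not overlap, so leaving out an array could not turn the sign and adds no support. Within the array numbers, 14 of the 22 members differed in the same direction in both pairs, as did 55.4% of all probe sets.

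Around these members, 69 other genes of RAS signalling were listed by role, of which 61 were measured. In the gene-wise fit, where the brightest probe set stands for each gene, 0 of the 61 passed the adjusted limma test in either direction and 0 had an unadjusted p under 0.05, against 0% and 2.83% of the 19775 genes. The arrays did not overlap for 23 of the 61 (37.7%), against 29.6% of all genes. Of the 23, 12 were higher and 11 lower, against 17.9% and 11.7% of all genes. Their differences ran from -0.34 to 0.23, with 27 above 0 and 34 below, where 56.5% of all genes lay above 0, and the median was -0.017 against 0.017 over all genes. The named genes below are those with the largest moderated statistic in each direction within a list, among genes at or above the median level, with 5 measured core genes added.

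**Figure D4:**
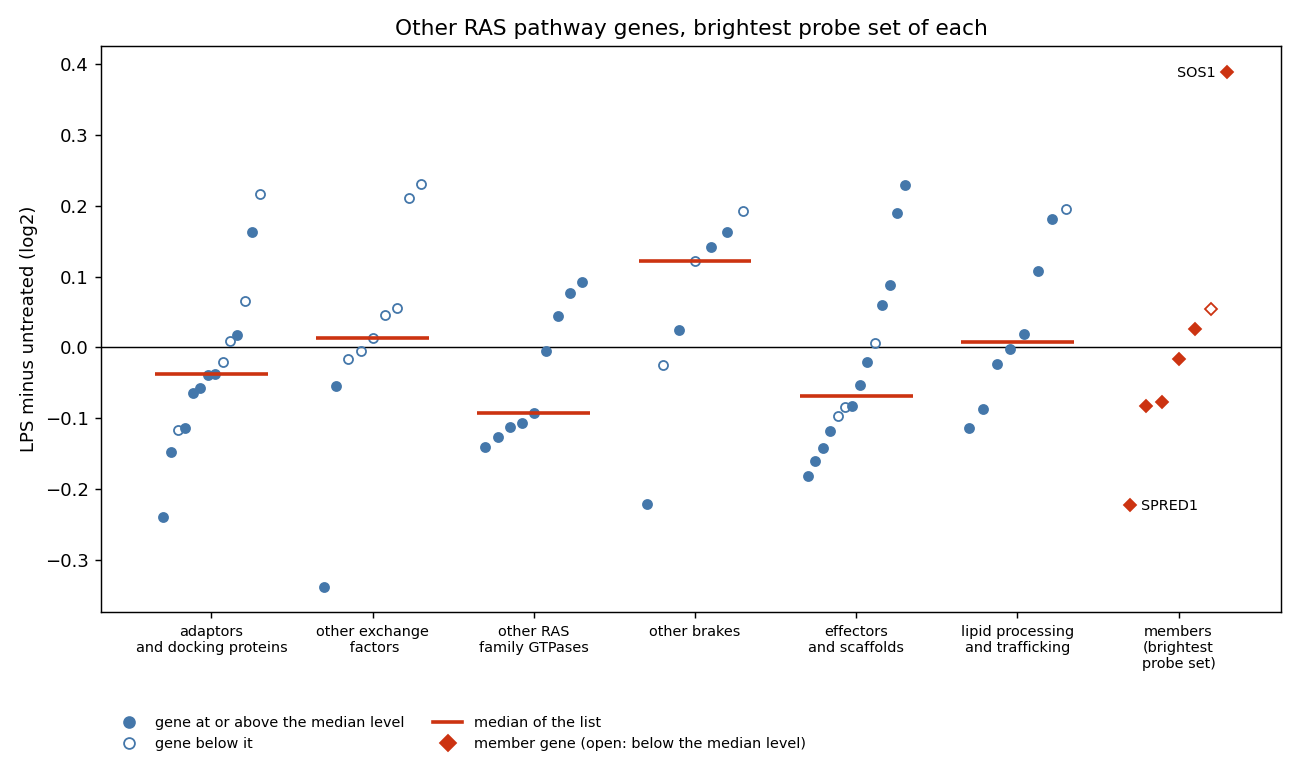
Difference between LPS and untreated arrays (y axis, log2, brightest probe set of each gene) for 61 other RAS pathway genes in 6 lists (x axis) and for the 7 member genes measured; filled circles are genes at or above the median level over genes, open ones below it, red bars the median of a list, and diamonds the members. The other genes lie between -0.34 and 0.23, with SOS1, whose difference chose the members, at 0.39 and SPRED1 at -0.22.

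Upstream of SOS, 14 adaptor and docking genes were measured, 5 above 0 and 9 below, with a median of -0.038. SHC1, which links receptors to GRB2, had 11.74 and 11.94 in untreated and 11.99 and 12.01 in treated cells, a difference of 0.16 ± 0.09 (SE). GAB1, a docking protein, had a difference of -0.15 ± 0.11 where it was brightest, and its other probe sets ran from -0.35 to 0.12. PTPN11, the phosphatase SHP2, which is needed for full RAS activation, differed by -0.11 ± 0.08 (others -0.17 to 0.01). The adaptor NCK1 differed by -0.24 ± 0.13, and its other probe sets ran from -0.35 to 0.07. On these brightest probe sets the treated arrays of SHC1 lay above and those of GAB1, PTPN11 and NCK1 below the untreated ones, with none past either threshold.

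Of the 9 other RAS exchange factor genes, 2 stood at or above the median level. RASGRP1, a diacylglycerol-responsive exchange factor best known from lymphocytes, had 9.25 and 9.08 in untreated and 9.01 and 8.65 in treated cells, a difference of -0.34 ± 0.15. It had the lowest difference of the 61 genes and only 1 probe set, and LPS replicate 2 was its lowest array. RASGRP3 differed by -0.05 and overlapped. The dim RASGRP2 differed by 0.23 and by -0.07 to 0.07 on its other probe sets, and both genes were named after their values were seen. The list had a median of 0.014.

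The 9 other RAS family GTPases were all at or above the median level, with 3 above 0, 6 below and a median of -0.093. RRAS differed by 0.09 ± 0.11 and RAP1A by -0.14 ± 0.10, both with overlapping arrays. The other probe sets of RAP1A differed by only -0.006 to -0.0003. Of the 7 other brakes measured, 5 lay above 0 and 2 below, with a median of 0.12. RASA2, a GTPase-activating protein, had 10.39 and 10.17 in untreated and 10.11 and 10.00 in treated cells, a difference of -0.22 ± 0.12, but its other probe sets differed by -0.05 to 0.10. RASAL2, of the same family, differed by 0.16 ± 0.12 and by -0.28 to 0.18 on its others. The brakes thus went both ways, within and between genes.

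Below RAS, 14 effector and scaffold genes were measured, 5 above 0 and 9 below, with a median of -0.068. MAP2K1, the kinase MEK1, was level at 10.44 and 10.42 in untreated and 10.40 and 10.42 in treated cells. MAPK3, the kinase ERK1, had 9.24 and 9.42, then 9.31 and 9.48, a difference of 0.06 ± 0.12 with the arrays numbered 2 higher in both groups. SHOC2, a scaffold of RAF activation, differed by -0.14 ± 0.10, and RALGDS, an exchange factor for RAL that binds active RAS, by 0.23 ± 0.14.

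The 8 genes for lipid processing and trafficking of RAS proteins, which give RAS its membrane anchor, had a median of 0.008, with 4 above 0 and 4 below. ZDHHC9, a palmitoyltransferase of HRAS, had 8.98 and 9.00 in untreated and 9.24 and 9.10 in treated cells, a difference of 0.18 ± 0.11 without overlap. LYPLA1, a thioesterase, had a difference of -0.11 ± 0.10 where it was brightest, against 0.16 for its other probe set. ZDHHC9 was the only gene of this list whose arrays did not overlap.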

How the data were processed

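Total RNA of AGS cells was labelled and hybridised to 4 Affymetrix arrays. The authors deposited log2 expression values for 54675 probe sets; MAS5 and RMA appear in the submitters' processing notes, with no role or version, and background and normalization settings are not given in the sources used here. The values have the form of RMA output, which compresses differences of dim probe sets. They were used as deposited, and detection calls were not used here. Gene names came from the platform's annotation, in which 41091 probe sets had 1 symbol, 1801 several and 11721 none, besides 62 control probe sets. The members and gene lists were chosen with earlier results of these data known. LPS and untreated arrays were compared over all probe sets with 1 symbol, and over 19775 genes by the probe set of highest mean, with limma 3.58.1 in R 4.3.3 (lmFit, eBayes with intensity trend, two-sided, Benjamini-Hochberg, threshold 0.05), without a covariate. Named pathway genes were, per list, the largest positive and negative moderated statistic among genes at or above median level, plus SHC1, PTPN11, GAB1, MAP2K1 and MAPK3; some listed genes are not reported here. Alternatives were quantile normalization, a filter at the median level, no trend, a replicate block, no _x_at or _s_at probe sets, all probe sets, the mean of a gene's probe sets, and each array left out. The number of arrays limits the precision. Promoter sequences are RefSeq's (GRCh38.p14), found for all 9 genes. Figures were drawn with matplotlib 3.10.9.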

Additional observations from a re-analysis of the deposited data

How the results depend on the processing

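The count of members past the adjusted threshold was 0 in every alternative run, as was that of all probe sets (limma; 316 to 3031 probe sets and 0 to 6 members at an unadjusted p under 0.05). Among genes it was 0 except without LPS replicate 2, where 16 passed (2 higher, 14 lower) and the remaining treated array takes its spread from the untreated pair; the range over arrays left out was 0 to 16, and none of the 61 pathway genes passed. Members without overlap numbered 7 after quantile normalization (4 higher, 3 lower), where 6523 of all 41091 probe sets were higher and 5966 lower. With 1 array left out such members numbered 12 to 19 (19 without LPS replicate 1, 18 without LPS replicate 2), where fewer arrays make overlap rarer. Of all 41091 probe sets, 12155 to 17537 were then higher without overlap and 10627 to 13832 lower. The members' median ran from -0.060 to 0.041 with 1 array left out, and the pathway median from -0.023 to 0.0092. The pathway median was -0.046 with the filter at the median level, where 42 genes were left. The same-numbered arrays deviated together (r = 0.54 across 41091 probe sets, which are not independent), but 2 pairs and the labels do not establish a pairing. With the replicate block, 0 probe sets passed the adjusted test, and the count at an unadjusted p under 0.05 went from 1102 to 3006 and among members from 3 to 6, adding SOS2 217644_s_at and SPRED1 226837_at and 244439_at. Leaving out 1 array turned the sign of 10 of the 22 members, and quantile normalization turned none. Turned signs were not counted over all probe sets.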
